A study of Mus musculus with 9 samples.

Results

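The genes described here are 44 that carry out or gate cell division: 20 that copy DNA, 20 that build and police mitosis, and 4 that set whether a cell leaves G1, the phase before DNA copying. They were taken from a list of gene names, by role in the cell cycle, and all 44 were found among the 15300 genes of the deposited tables. RNA was sequenced from whole gonads of C57BL/6 mouse fetuses at E13.5 (days of embryonic development), freed of the adjoining mesonephros, in 9 samples, 3 in each of 3 groups. The series examines what the transcription factor SOX9 does in the fetal testis. XX-WT samples were ovaries of XX Sox9flox/flox wildtype fetuses. XY-WT samples were testes of XY Sox9flox/flox wildtype fetuses. XY-KO samples were testes of XY AMH-Cre; Sox9flox/flox fetuses, in which Cre recombinase is driven by the AMH promoter, active in Sertoli cells. All 3 groups therefore carried the floxed Sox9 alleles, and in XY-KO the deletion was aimed at a single cell type of a mixed organ. Whether a sample is 1 fetus or a pool is not in the labels, so p-values measure only the spread between these samples.

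Cells copy their genome once per cycle by loading the MCM helicase onto origins with CDC6 and CDT1, switching it on with the GINS complex, and extending primers on the sliding clamp PCNA. They then condense and share out the copies under cyclin B with CDK1, the Polo and Aurora kinases and the spindle checkpoint. Promoters of genes used in DNA copying are known for E2F sites, and promoters of mitotic genes for the cell cycle homology region (CHR), bound by complexes that contain LIN54. In the fetal gonad these programs come apart by cell type. Sertoli cells of the testis go on dividing, pre-granulosa cells of the ovary leave the cycle and hold the inhibitor CDKN1B, and XX germ cells copy their DNA a last time before they enter meiosis.

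The promoters of the members are shown first. The share with a motif match differed between the DNA copying genes and the mitotic genes, a feature the choice of members did not use. RefSeq promoters on GRCm38.p6, each running from 250 bases before to 50 bases after the start of transcription, were found for 35 of the 44 members. Those without an entry were Mcm4, Gins1, Gins2, Ccne2, Ccna2, Aurkb, Tpx2, Ccnd1 and Ccnd2. Both strands were searched for the E2F octamers TTTCCCGC, TTTGGCGC and TTTCGCGC, which can overlap each other, for the CHR hexamers TTTGAA and TTCGAA, and for CCAAT. An E2F match was present in 8 of 16 replication promoters (50.0%), 1 of 17 mitotic promoters (5.88%) and 3.49% of the 11051 promoters of genes in the tables. A CHR match was present in 3 of 16 replication promoters (18.8%), 13 of 17 mitotic promoters (76.5%) and 13.8% of those of all genes in the tables. CCAAT was present in 11 of 16 replication and 15 of 17 mitotic promoters, against 39.0% of all. A match is a description of letters, not a bound site. The stretches directly upstream of the start of Mcm6, a helicase subunit, of Cdk1, the mitotic kinase, and of Cdkn1b, the G1 inhibitor, are printed as examples. They lie at chr1:128359706-128359855 (minus strand), chr10:69352913-69353062 (minus strand) and chr6:134920251-134920400 (plus strand). Capitals mark E2F and CHR matches.
Mcm6: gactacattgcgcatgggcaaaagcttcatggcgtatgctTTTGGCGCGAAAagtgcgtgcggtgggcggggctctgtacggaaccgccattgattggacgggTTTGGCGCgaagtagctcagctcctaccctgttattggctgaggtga
Cdk1: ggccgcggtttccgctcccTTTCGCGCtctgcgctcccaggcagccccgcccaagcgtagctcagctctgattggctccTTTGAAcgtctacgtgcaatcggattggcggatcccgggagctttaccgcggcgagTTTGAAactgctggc
Cdkn1b: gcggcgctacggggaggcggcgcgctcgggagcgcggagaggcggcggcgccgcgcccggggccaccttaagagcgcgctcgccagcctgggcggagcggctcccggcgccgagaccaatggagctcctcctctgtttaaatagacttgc

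Mcm6 carried 3 E2F matches in this stretch, of which a pair overlaps, and is the replication member with the most. Mcm2, Pcna, Rfc4, Prim1, Rrm1, Rrm2, Tyms and Ccne1 had no E2F match, and Mcm2 carried a CHR match. Of the mitotic members, Ccnb1, Birc5, Cenpe and Mad2l1 had no CHR match. Cdk1 carried 2 CHR matches and the sole E2F match among the mitotic members. Neither G1 regulator with a promoter entry, Cdkn1a or Cdkn1b, carried either motif. The match nearest the start, with 10 bases on each side, is shown for members of the helicase, its loader Cdt1 and 4 mitotic genes, as examples of these letters in genes that differ in role. The E2F octamer or its reverse complement is in capitals in Mcm3, Mcm5, Mcm7 and Cdt1, and the CHR hexamer or its reverse complement in Top2a, Plk1, Ccnb2 and Mki67.
Mcm3: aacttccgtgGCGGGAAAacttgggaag
Mcm5: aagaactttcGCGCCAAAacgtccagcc
Mcm7: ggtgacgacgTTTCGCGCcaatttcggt
Cdt1: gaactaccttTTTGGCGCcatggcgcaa
Top2a: tagataaaggTTCAAAtgaaactagg
Plk1: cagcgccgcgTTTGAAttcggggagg
Ccnb2: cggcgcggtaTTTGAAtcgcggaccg
Mki67: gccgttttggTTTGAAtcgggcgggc

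**Figure D1:**
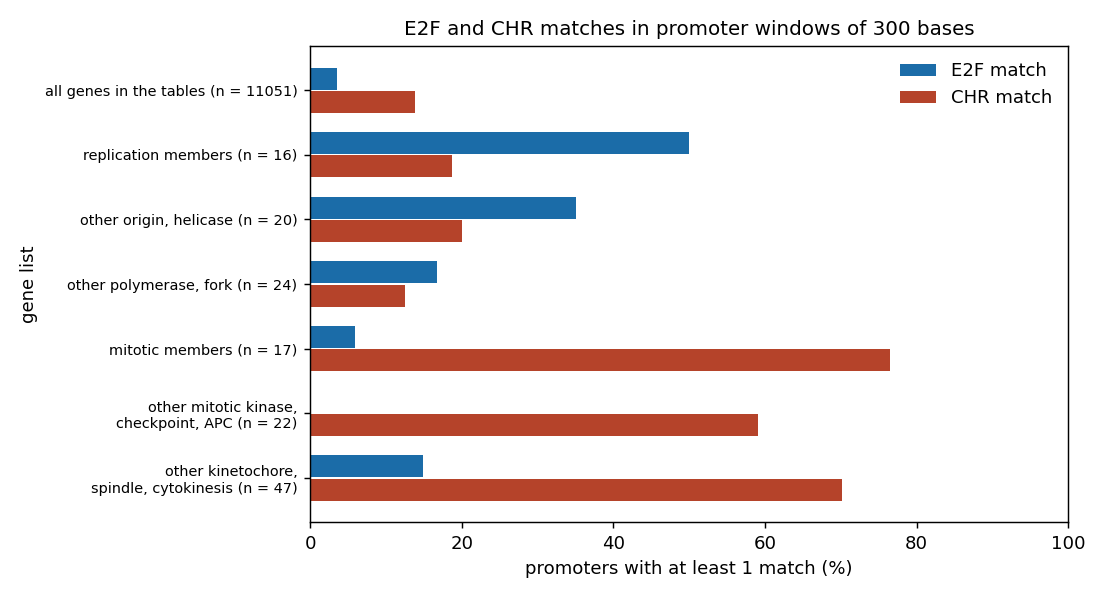
Share of promoters (percent, horizontal axis) with at least 1 E2F match (blue) or CHR match (red) in 300-base windows, for all genes of the tables, the replication and mitotic members and 4 further lists of the same roles. E2F matches reach 50.0% in the replication members against 5.88% in the mitotic members, and CHR matches 76.5% in the mitotic members against 18.8% in the replication members.

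Genes of these pathways that are not members were divided more clearly by CHR than by E2F matches. An E2F match stood in 35.0% of the promoters of 20 other origin and helicase genes and in 16.7% of 24 other polymerase and fork genes. It stood in none of 22 other mitotic kinase, checkpoint and anaphase-promoting complex (APC) genes and in 14.9% of 47 other kinetochore, condensin, spindle and cytokinesis genes. A CHR match stood in 59.1% and 70.2% of the latter pair of lists, and in 20.0% and 12.5% of the former pair. The E2F shares of the fork genes and the kinetochore list were close, so the E2F division of the members is not repeated there.

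Expression values come from the authors' deposited tables, which give for each gene a log2 fold change between a pair of groups, the mean level over all samples and the limma test. Standard errors (SE) and 95% intervals were derived here from the deposited fold change and moderated t. Group levels in CPM (reads per gene scaled so that libraries have equal totals) were derived here from the mean and the fold changes and carry no spread, since no per-sample values were used. The unit of the deposited mean is not named beyond its log2 scale and was taken to be log2 CPM. Levels in CPM and per kilobase rest on that assumption. The depth of each sample is therefore unknown, and no sample's own value can be shown. The call of a change was a limma adjusted p below 0.05 over all genes of a table. Any pair of the 3 comparisons shares a group of 3 samples, and any pair gives the third. No comparison is therefore independent of the others, and they do not support each other. A level particular to the XY-WT samples would enter both comparisons with them. As a check of the labels, the authors' deposited table for XY-KO against XY-WT gave Sox9 a log2 fold change of -2.76 (adjusted p 8.93e-07), with derived levels of 89.4 CPM in XY-WT, 13.2 in XY-KO and 4.02 in XX-WT.

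All 44 members were expressed, and 42 of them lay at or above the median mean level of the tables (3.19 in log2 CPM). Per kilobase of the longest transcript, the highest derived levels in XY-WT were those of Top2a, which untangles sister DNA (94.9 CPM per kb), Mki67, the proliferation marker that coats mitotic chromosomes (68.5), the clamp Pcna (50.7) and cyclin A2, Ccna2 (44.8). The same 4 genes led in the same order in XX-WT and XY-KO. Cdc6 at 2.21 CPM per kb, Cdkn1a at 2.56 and cyclin E1, Ccne1, at 2.99 were the lowest in XY-WT. These levels have no error of their own, so neighbours in the order cannot be told apart.

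Deletion of Sox9 in Sertoli cells left the division genes at or slightly below their control testis level. The authors' deposited table for XY-KO against XY-WT put 19 of 20 replication members and 20 of 20 mitotic members below 0, against 51.6% of all genes. The median log2 fold change was -0.23 for the replication members and -0.38 for the mitotic members, against -0.01 over all genes. A single member passed the test: Mcm2, a subunit of the MCM helicase, fell. Of all genes in it, 2.27% were called, 1.57% lower and 0.699% higher, so 1 of 44 members is close to the background share. The direction, the medians and the counts at an unadjusted p under 0.05, given below, set the replication and mitotic members apart from all genes. Members that rise and fall with division in the same cells are not independent of each other. In whole gonads fewer dividing cells and less RNA per dividing cell cannot be told apart.

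**Figure D2:**
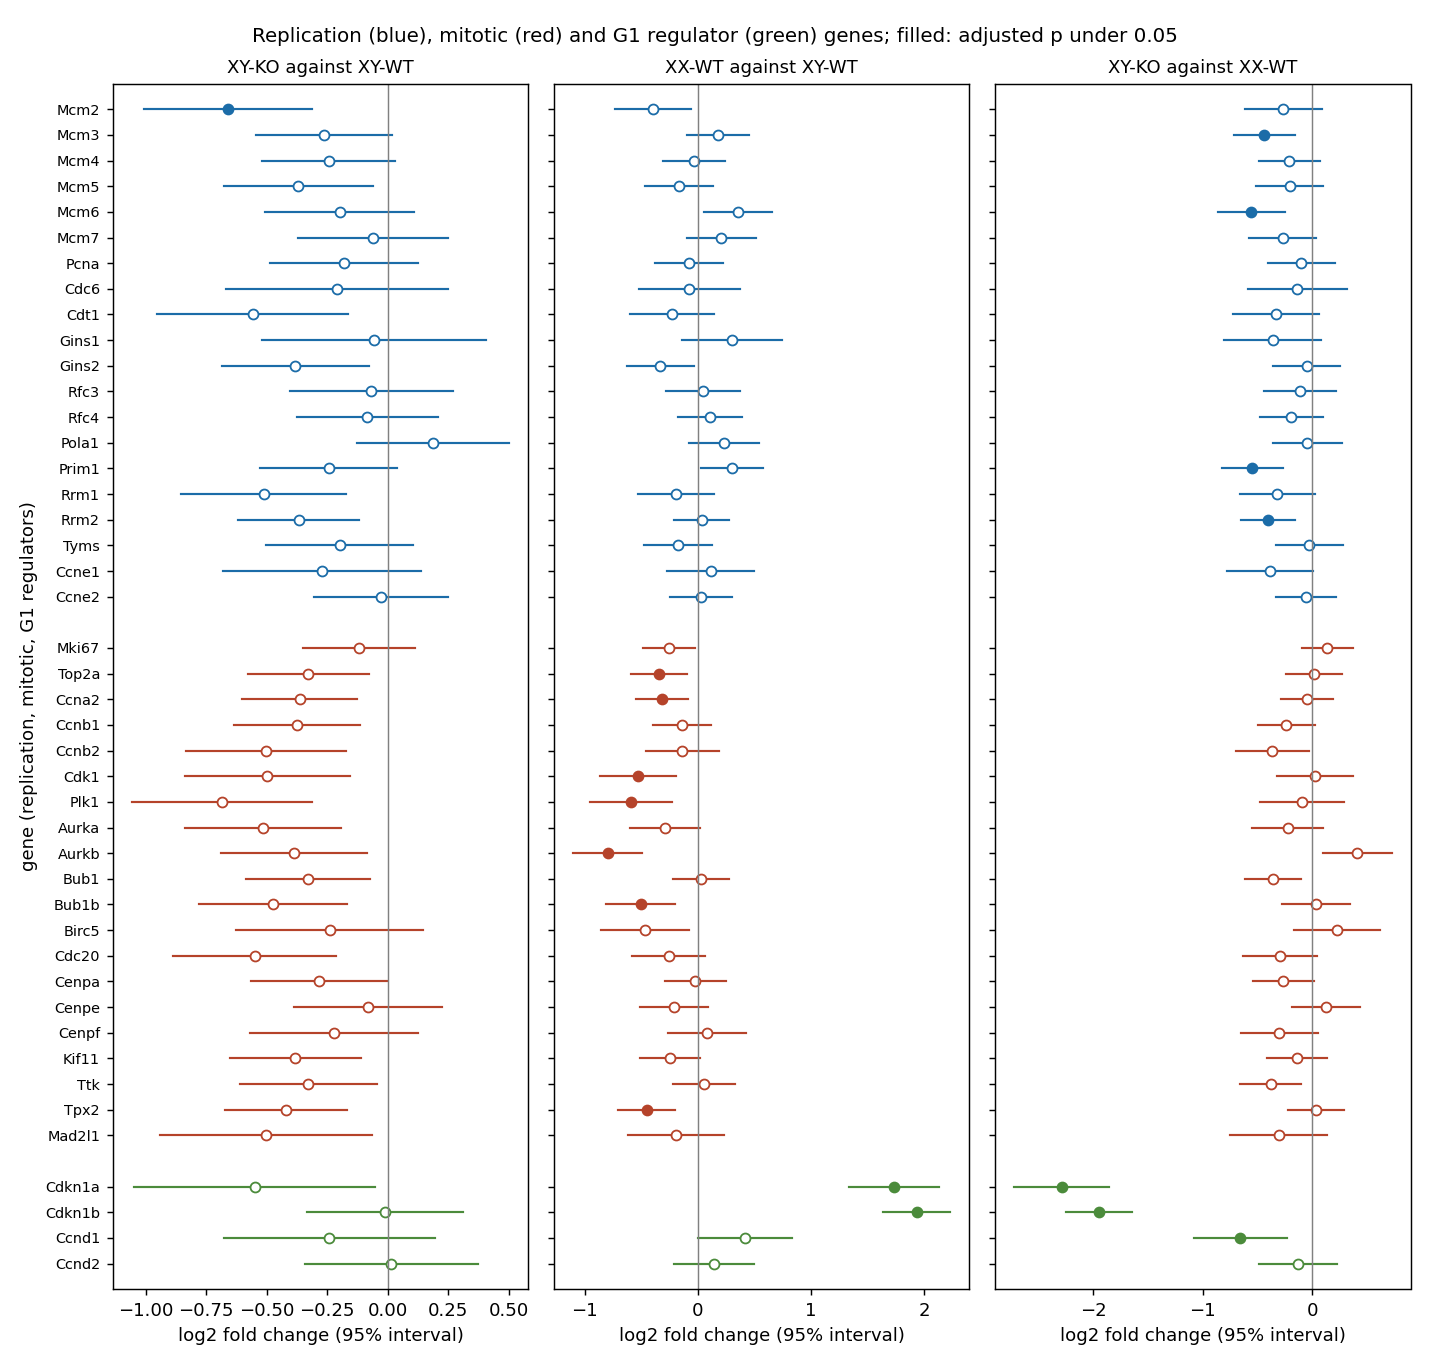
Log2 fold change of each of the 44 members (points) with its 95% interval (lines) in the 3 comparisons, with replication genes in blue, mitotic genes in red and G1 regulators in green. Filled points passed an adjusted p under 0.05, and the 3 panels have different horizontal scales. In XY-KO against XY-WT 39 of the 40 replication and mitotic genes lie left of 0, and Mcm2 is the filled point.

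Among the helicase subunits, Mcm2 (chr6:88883474-88898780 on GRCm38) had derived levels of 58.4 CPM in XY-WT, 44.4 in XX-WT and 37.0 in XY-KO. Its log2 fold change in the authors' deposited table for XY-KO against XY-WT was -0.66 (SE 0.163, adjusted p 0.0469), a level 1.58-fold lower with a 95% interval of 1.24 to 2.01. This call lies at the edge of the threshold: the adjusted p was 0.114 once a trend of fold change with transcript GC content and length was removed, and 0.0502 with fold changes centred on the median of all genes. Mcm5 stood at -0.37 (adjusted p 0.184), Mcm3 at -0.26 (0.294), Mcm4 at -0.24 (0.324), Mcm6 at -0.20 (0.490) and Mcm7 at -0.06 (0.859) in the same deposited table. All 6 subunits therefore lay below 0, and the other 5 did not pass the test. Exons of Mcm7 overlap those of Ap4m1 on the opposite strand over 7.25% of their bases.

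Of the other replication members, the loader Cdt1 had a log2 fold change of -0.56 (SE 0.186, adjusted p 0.130) per the authors' deposited table for XY-KO against XY-WT. Rrm1 and Rrm2, the large and small subunits of ribonucleotide reductase, which makes the DNA building blocks, stood at -0.51 (adjusted p 0.109) and -0.37 (0.117). Gins2, of the GINS complex, stood at -0.38 (adjusted p 0.170) in that table, but 67.3% of its exonic bases overlap exons of Gse1 on the opposite strand. The strand setting of the authors' counting is not given in the sources used here, so reads of the overlapping pair could not be told apart. The same holds for 12.7% of the exonic bases of Rfc4, 17.4% of Ccne2 and 2.84% of Cdc20, and Pcna, Tyms, Ccnb1 and Ccnb2 have annotated pseudogenes that could share their reads. Pola1, the catalytic subunit of the polymerase that starts new strands, was the sole replication member above 0, at 0.19 (adjusted p 0.530). The remaining 9 members, among them Pcna at -0.18, the clamp loader subunits Rfc3 and Rfc4 at -0.07 and -0.08, the loader Cdc6 at -0.21 and Ccne1 at -0.27, lay between -0.27 and -0.03 in the authors' deposited table and did not pass the test. At an unadjusted p under 0.05, a count chosen after seeing the data, 6 of 20 replication members were lower and none higher, against 10.2% and 8.76% of all genes.

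Mitotic members lay further below 0, each by a small step, and none passed the adjusted test. Plk1, the Polo kinase that drives entry into mitosis, had derived levels of 27.7 CPM in XY-WT, 18.4 in XX-WT and 17.3 in XY-KO. Its log2 fold change was -0.69 (SE 0.175, adjusted p 0.0541) per the authors' deposited table for XY-KO against XY-WT. Cdc20, the activator of the anaphase-promoting complex, stood at -0.55 (adjusted p 0.0847), Aurka, the spindle pole kinase, at -0.51 (0.0885) and Tpx2, which activates it, at -0.42 (0.0809) in that table. The B cyclins Ccnb2 and Ccnb1 stood at -0.50 (adjusted p 0.108) and -0.37 (0.124), their kinase Cdk1 at -0.50 (0.119), and the checkpoint protein Mad2l1 at -0.50 (0.204) per the authors' deposited table.

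The smallest steps among the mitotic members were those of Cenpe, a kinetochore motor (-0.08, adjusted p 0.806), and Mki67 (-0.12, adjusted p 0.593, 95% interval -0.35 to 0.11) in the same deposited table. The commonly used proliferation marker Mki67 was thus among the mitotic members nearest to 0, with derived levels of 689 CPM in XY-WT, 634 in XY-KO and 577 in XX-WT. By unadjusted p (under 0.05) the authors' deposited table gave 16 of 20 mitotic members lower and none higher, against 10.2% and 8.76% of all genes. Removing the GC and length trend left the median at -0.37 for the mitotic and -0.18 for the replication members, with none of either called. Over all genes that step moved the split of called genes from 107 higher and 240 lower to 118 higher (0.771%) and 143 lower (0.935%), or 1.71% in all.

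Some mitotic genes were lower in the ovary than in the testis. In the authors' deposited table for XX-WT against XY-WT, 7 of 20 mitotic members were lower and none higher, while 0 of 20 replication members were called by limma; this contrast between the groups of genes was not tested, and at an adjusted p under 0.01 a single mitotic call was left. Of all genes in it, 23.3% were called, 12.4% lower and 10.9% higher. Medians were -0.26 for the mitotic and 0.03 for the replication members, against 0.00 over all genes, and 17 mitotic and 9 replication members lay below 0. At an unadjusted p under 0.05, 2 replication members were higher and 2 lower, against 17% and 18.3% of all genes.

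Aurkb, the Aurora kinase that corrects chromosome attachments (chr11:69045647-69051664), had the largest fall of the mitotic members, with derived levels of 28.1 CPM in XY-WT, 21.5 in XY-KO and 16.1 in XX-WT. Its log2 fold change was -0.80 (SE 0.144, adjusted p 0.00075) per the authors' deposited table for XX-WT against XY-WT, a level 1.74-fold lower with a 95% interval of 1.41 to 2.15. Plk1 fell by 0.59 on the log2 scale (adjusted p 0.0202), Cdk1 by 0.53 (0.0243), the checkpoint kinase Bub1b by 0.51 (0.0173) and Tpx2 by 0.45 (0.0109) in that table. Top2a fell by 0.34 (adjusted p 0.0437) and Ccna2 by 0.32 (0.0487) in the same deposited table. The Ccna2 call lies close to the threshold, 12.5% of the exonic bases of Ccna2 overlap Exosc9 on the opposite strand, and with the trend in GC and length removed its adjusted p was 0.055 and that of Plk1 0.111. Adjusted jointly over the 3 comparisons it was 0.0668 for Ccna2 and 0.0607 for Top2a. Birc5, the Aurkb partner survivin, stood at -0.47 (adjusted p 0.0779) and Mki67 at -0.26 (0.0984, or 0.0414 with the trend removed).

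A few mitotic genes stood near 0 between ovary and testis. Bub1, a checkpoint kinase, had a log2 fold change of 0.03 (95% interval -0.22 to 0.28), Ttk, the kinase that starts the checkpoint, 0.05 and the centromeric histone Cenpa -0.02 in the authors' deposited table for XX-WT against XY-WT. The related genes Bub1 and Bub1b thus lay apart, at 0.03 and -0.51, but that difference was not tested. Among the replication members Mcm6, at 0.36 (SE 0.142, adjusted p 0.0848), and Prim1, the primase subunit that lays down primers, at 0.30 (adjusted p 0.103), lay highest, with Gins1 at 0.30 (0.324). Mcm2 lay lowest at -0.40 (adjusted p 0.0863) per the authors' deposited table.

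Prim1, Mcm6, Mcm3 and Rrm2 of the replication genes were lower in the Sox9-deleted testis than in the ovary. In the authors' deposited table for XY-KO against XX-WT, all 20 replication members lay below 0 and 4 fell, against 18.3% of all genes called, 9.11% lower and 9.16% higher. The other 16 did not pass the test, and at an adjusted p under 0.01 only Prim1 was called. None of 20 mitotic members was called by limma. At an unadjusted p under 0.05, 4 replication members were lower and none higher, and 3 mitotic members were lower and 1 higher. Over all genes the shares were 15% and 14.5%, or 29.5% in all. The unadjusted counts of these roles were thus close, and the contrast in calls was not tested. Medians were -0.24 for the replication and -0.12 for the mitotic members, against -0.00 over all genes.

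Prim1 (chr10:128015168-128030037) had derived levels of 34.7 CPM in XY-KO, 41.2 in XY-WT and 50.8 in XX-WT, and fell by 0.55 on the log2 scale (SE 0.131, adjusted p 0.00747) per the authors' deposited table for XY-KO against XX-WT. Mcm6 (chr1:128331590-128359664), whose upstream stretch is printed above, had derived levels of 73.7 CPM in XY-KO, 84.6 in XY-WT and 108 in XX-WT and fell by 0.55 (SE 0.144, adjusted p 0.0131). For both genes XY-WT lay between the other groups. Mcm3 fell by 0.44 (adjusted p 0.0279) and Rrm2 by 0.40 (0.0242) in that deposited table. On the mitotic side Aurkb stood at 0.41 (SE 0.147, adjusted p 0.0672), Bub1 at -0.36 (0.0521) and Ttk at -0.38 (0.0582), so the members nearest to the threshold lay on both sides of 0. With the trend in GC and length removed, Aurkb was called higher and Bub1 lower, against 9.45% and 8.93% of all genes.

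Side by side, the median of the replication members minus that of the mitotic members was 0.15 in XY-KO against XY-WT, 0.29 in XX-WT against XY-WT and -0.12 in XY-KO against XX-WT, and 0.19, 0.32 and -0.12 with the trend removed. The mitotic genes thus lay lower than the replication genes in both comparisons with the control testis, which rest on the same XY-WT samples. The order turned when the Sox9-deleted testis was set against the ovary. The fold changes of that comparison follow from the other comparisons, so the turn is not a separate observation. No test of this difference was made, because members are not replicates and share the samples of each comparison.

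**Figure D3:**
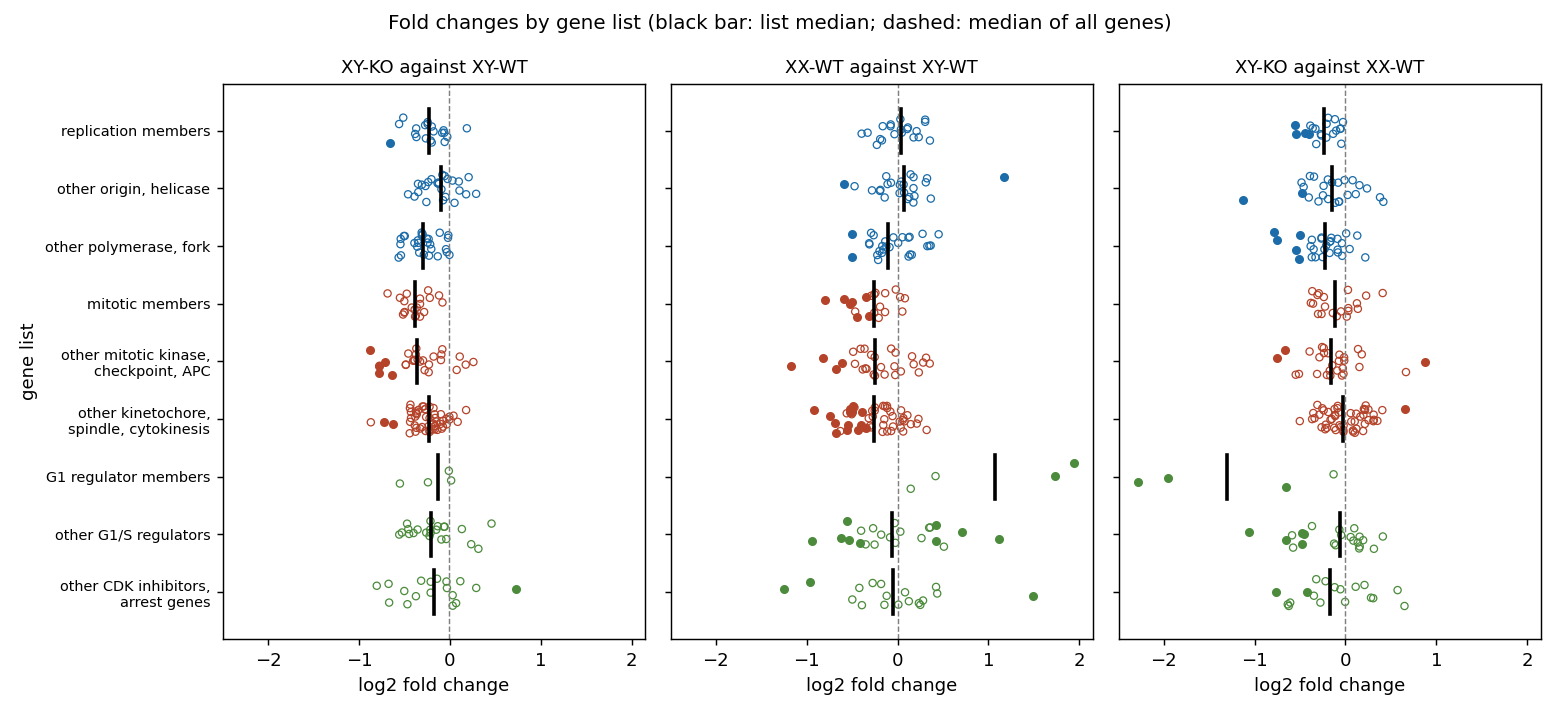
Log2 fold changes of the members and of 6 further lists of the same pathways (points, filled where the adjusted p is under 0.05) with the median of each list (black bar) and of all genes (dashed line), in the 3 comparisons; vertical scatter within a list has no meaning. Mitotic lists lie left of the dashed line in both comparisons against XY-WT, with medians of -0.38, -0.36 and -0.23 in XY-KO and -0.26, -0.25 and -0.26 in XX-WT; the lists of DNA copying genes lie left of it in XY-KO as well, with medians of -0.23, -0.09 and -0.29.

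Cdkn1a and Cdkn1b, of the G1 regulators, showed the largest fold changes of the 44 genes in the deposited tables, and they separated the ovary from both kinds of testis. Cdkn1b (chr6:134920401-134925513), which holds cyclin-dependent kinases inactive in cells that leave the cycle, had derived levels of 89.4 CPM in XX-WT, 23.4 in XY-WT and 23.2 in XY-KO. Its log2 fold change was 1.94 (SE 0.140, adjusted p 9.40e-08) per the authors' deposited table for XX-WT against XY-WT, a level 3.83-fold higher with a 95% interval of 3.11 to 4.71. In XY-KO against XY-WT it stood at -0.01 (adjusted p 0.980) with a 95% interval of -0.33 to 0.31 in the authors' deposited table, an interval that leaves out changes of the size seen in the ovary. Against XX-WT, Cdkn1b in XY-KO fell by 1.95 (adjusted p 1.24e-07).

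Cdkn1a (chr17:29090976-29100727), the inhibitor best known as a target of p53, had derived levels of 17.7 CPM in XX-WT, 5.32 in XY-WT and 3.64 in XY-KO. It rose by 1.74 (SE 0.188, adjusted p 6.03e-06) per the authors' deposited table for XX-WT against XY-WT, a level 3.33-fold higher with a 95% interval of 2.52 to 4.40. It stood at -0.55 (SE 0.234, adjusted p 0.219) in XY-KO against XY-WT and fell by 2.29 (adjusted p 1.08e-06) in XY-KO against XX-WT in the authors' deposited tables.

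Of the D cyclins, which carry growth signals into G1, Ccnd1 had derived levels of 36.2 CPM in XX-WT, 27.1 in XY-WT and 22.9 in XY-KO, and fell by 0.66 (SE 0.199, adjusted p 0.0305) per the authors' deposited table for XY-KO against XX-WT. Its values of 0.42 (adjusted p 0.140) in XX-WT and -0.24 (0.563) in XY-KO, both against XY-WT, did not pass, and 23.4% of its exonic bases overlap LTO1 on the opposite strand. Ccnd2 stood at 0.14, 0.01 and -0.13 in the 3 deposited tables and was called in none.

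Another inhibitor of the same family, Cdkn1c, is imprinted and expressed from the maternal copy. It was the sole gene of 18 other CDK inhibitors and arrest genes called in XY-KO against XY-WT, where 2.27% of all genes were called. It had derived levels of 42.6 CPM in XY-WT, 70.7 in XY-KO and 120 in XX-WT. It rose by 0.73 (SE 0.135, adjusted p 0.0082) per the authors' deposited table for XY-KO against XY-WT, a level 1.66-fold higher with a 95% interval of 1.36 to 2.03. It rose by 1.49 (adjusted p 7.68e-07) in XX-WT against XY-WT and fell by 0.76 (adjusted p 0.000596) in XY-KO against XX-WT, so XY-KO lay between the control testis and the ovary for Cdkn1c but at the testis level for Cdkn1b. With the trend in GC and length removed its rise in XY-KO was 1.08.

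**Figure D4:**
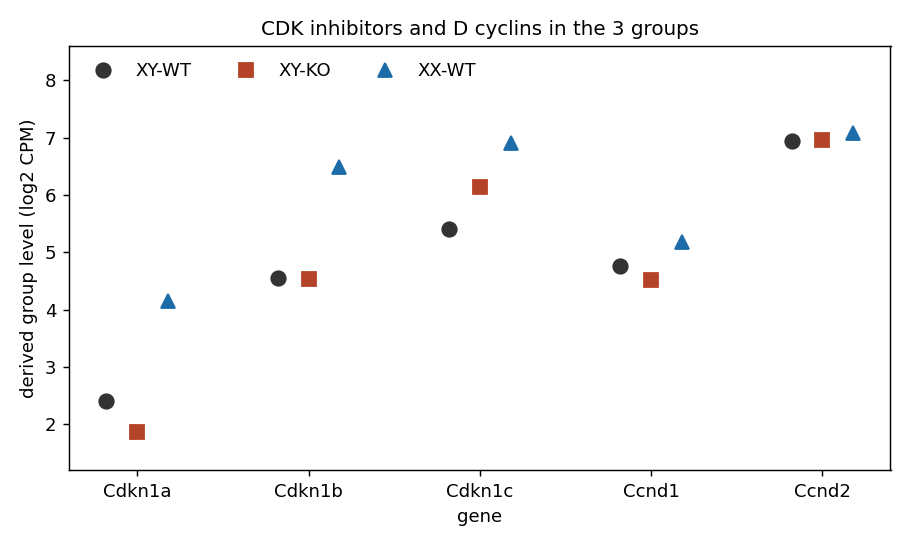
Derived group levels (log2 CPM, vertical axis) of the CDK inhibitors Cdkn1a, Cdkn1b and Cdkn1c and of the D cyclins Ccnd1 and Ccnd2 in XY-WT (circles), XY-KO (squares) and XX-WT (triangles); no error is drawn because no per-sample values were used. XX-WT lies highest for all 5 genes, and XY-KO lies apart from XY-WT toward XX-WT for Cdkn1c and on XY-WT for Cdkn1b.

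Of the other arrest genes, 2 were called in the ovary and 1 between the Sox9-deleted testis and the ovary. Over all genes, 23.3% and 18.3% were called in these comparisons. In XX-WT against XY-WT, Cdkn2c, an inhibitor of CDK4 and CDK6, fell by 1.25 (adjusted p 0.0163) and Phlda3, a p53 target, by 0.97 (0.0355) per the authors' deposited table, at derived levels of at most 2.60 CPM. Both calls were lost with the trend removed (adjusted p 0.0529 and 0.231). In XY-KO against XX-WT the p53 target Sesn1 fell by 0.42 (adjusted p 0.0285). Trp53 itself stood at -0.47 (adjusted p 0.0885) and the stress gene Gadd45g at -0.80 (0.0818) per the authors' deposited table for XY-KO against XY-WT. The medians of the 18 genes were -0.18, -0.06 and -0.17 in XY-KO against XY-WT, XX-WT against XY-WT and XY-KO against XX-WT. Cdkn2a and Cdkn2b were not analysed here.

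Among 22 other G1 and S phase regulators the authors' deposited table for XY-KO against XY-WT called none, with the repressor E2f8 nearest at -0.53 (adjusted p 0.0511), its relative E2f7 at -0.47 (0.101) and Cdk6, a partner of the D cyclins, at 0.46 (0.132). At an unadjusted p under 0.05 there were 7 lower and 2 higher, against 10.2% and 8.76% of all genes. In XX-WT against XY-WT 4 rose and 5 fell, against 10.9% and 12.4% of all genes. Among them were Cdk6, by 1.11 upward (adjusted p 4.25e-05), Mycn, a growth regulator, by 0.71 upward (0.00103), and E2f8, which fell by 0.94 (9.87e-05) per the authors' deposited table. In XY-KO against XX-WT 5 fell and none rose, against 9.11% and 9.16% of all genes. Mycn stood at -1.06 (adjusted p 4.09e-05), Cdk6 at -0.66 (0.00345) and the activator E2f3 at -0.48 (0.0264) in the deposited table. List medians were -0.21, -0.06 and -0.06 in the same order of comparisons.

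Origin and helicase factors outside the members moved little except for Orc1, the origin recognition subunit. Its derived level was 34.9 CPM in XX-WT, 15.4 in XY-WT and 16 in XY-KO, and it rose by 1.18 (SE 0.146, adjusted p 2.37e-05) per the authors' deposited table for XX-WT against XY-WT. Orc1 stood at 0.05 (adjusted p 0.892) in XY-KO against XY-WT and at -1.12 (4.47e-05) in XY-KO against XX-WT. Cdc45, which rides with the active helicase, went the other way in the ovary and fell by 0.59 (adjusted p 0.0239). Ticrr, which helps load Cdc45, fell by 0.48 (adjusted p 0.0139) per the authors' deposited table for XY-KO against XX-WT. These were the only calls among the 25 genes in the 3 comparisons, and list medians were -0.09, 0.07 and -0.15. Over all genes, 2.27%, 23.3% and 18.3% were called in XY-KO against XY-WT, XX-WT against XY-WT and XY-KO against XX-WT. None of the 25 was called in XY-KO against XY-WT by limma. There 2 were lower and 1 higher at an unadjusted p under 0.05, against 10.2% and 8.76% of all genes.

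The 28 other polymerase and fork genes all lay below 0 in the authors' deposited table for XY-KO against XY-WT, with a median of -0.29 and no call. At an unadjusted p under 0.05, 9 were lower and none higher, against 10.2% and 8.76% of all genes. The nearest were Chaf1a, a histone chaperone, at -0.54 (adjusted p 0.054), the nuclease Dna2 at -0.54 (0.0885) and Uhrf1, which carries DNA methylation through replication, at -0.50 (0.108). In XX-WT against XY-WT, where 12.4% of all genes were called lower, Uhrf1 fell by 0.50 (adjusted p 0.0243) and Dna2 by 0.50 (0.0284), and the median was -0.11. With the trend removed the adjusted p of Uhrf1 was 0.0963, and Rpa2 and Lig1 were called higher (0.0438 and 0.0284). In XY-KO against XX-WT 5 fell, against 9.11% of all genes, with a median of -0.22. Among them were Rpa2, of the protein that coats single strands, by 0.79 (adjusted p 0.00622), Dut, which clears dUTP, by 0.75 (0.0134) and the ligase Lig1 by 0.51 (0.0108) per the authors' deposited table.

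Calls in XY-KO against XY-WT were found in the mitotic genes outside the members. Of 28 other mitotic kinase, checkpoint and APC genes, 5 fell and none rose in the authors' deposited table, against 1.57% and 0.699% of all genes, with a median of -0.36. They were Foxm1, the transcription factor that drives mitotic genes (-0.63, SE 0.133, adjusted p 0.0198), Fzr1, the late activator of the APC (-0.88, adjusted p 0.0272), Cdca5, the cohesion protein sororin (-0.78, adjusted p 0.0277), and, named after their values were seen, Cdca3 (-0.72, adjusted p 0.0401) and the ubiquitin enzyme Ube2s (-0.78, adjusted p 0.0426). With the trend in GC and length removed only Ube2s kept the call (adjusted p 0.0442), and Foxm1 stood at 0.0939, Cdca5 at 0.0884, Cdca3 at 0.113 and Fzr1 at 0.196.

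Foxm1 had derived levels of 35.3 CPM in XY-WT, 22.8 in XY-KO and 23.1 in XX-WT, and it fell by 0.61 (adjusted p 0.00298) per the authors' deposited table for XX-WT against XY-WT. That table called 4 of the 28 lower and none higher, against 12.4% and 10.9% of all genes, with a median of -0.25. The count lower is thus close to the share over all genes. Among the 4 were Cdc25c, the phosphatase that activates CDK1, which fell by 1.18 (adjusted p 0.000404), and Fzr1, which fell by 0.82 (0.00529, or 0.0789 with the trend removed). In XY-KO against XX-WT 18.3% of all genes were called, and the median of this list was -0.15. There Cdc25c rose by 0.88 (adjusted p 0.0055), while the centrosome kinase Nek2 fell by 0.76 (0.0061) and separase, Espl1, fell by 0.66 (0.0156).

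Of 52 other kinetochore, condensin, spindle and cytokinesis genes, the authors' deposited table for XY-KO against XY-WT put 49 below 0 with a median of -0.23. It called 2 of them lower, against 1.57% of all genes. They were the microtubule depolymerases Kif2c (-0.63, adjusted p 0.0321) and Kif18b (-0.72, adjusted p 0.0407), which stood at 0.0842 and 0.156 with the trend removed. The spindle protein Nusap1, at -0.44, went the other way, from an adjusted p of 0.0569 to 0.0403. In XX-WT against XY-WT 15 of the 52 fell and none rose, against 12.4% and 10.9% of all genes, with a median of -0.26. The calls were led by Kif18b (-0.92, adjusted p 0.00116), the kinetochore subunit Nuf2 (-0.74, 0.00205) and Nusap1 (-0.54, 0.00227) per the authors' deposited table. In XY-KO against XX-WT, where 18.3% of all genes were called, the median was -0.02. Spc24, of the same kinetochore complex as Nuf2, was the sole call, higher by 0.65 (adjusted p 0.0458, or 0.054 adjusted jointly over the 3 comparisons). With the trend removed 2 genes of the list were called lower as well: Anln, a cytokinesis scaffold, at -0.33 (adjusted p 0.0484), and, named after its value was seen, the spindle motor Kif18a (adjusted p 0.0395).

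Markers of the cell types in a gonad moved with these comparisons, and their part in the results was not tested. Summed derived levels are given for XY-WT, XX-WT and XY-KO in that order. Over all genes, 2.27% were called in XY-KO against XY-WT, 23.3% in XX-WT against XY-WT and 18.3% in XY-KO against XX-WT. The 12 Sertoli cell markers summed to 619, 36.9 and 227 CPM, and 11 of them fell in the authors' deposited table for XY-KO against XY-WT (Aard by 1.14, Nedd9 by 0.69). The 12 include Sox9, the deleted gene itself, so their sum does not measure the number of Sertoli cells. Whether Sertoli cells were fewer was not tested. The 8 pre-granulosa markers summed to 48.9, 419 and 44.9 CPM, and all 8 rose in XX-WT against XY-WT (Wnt4 by 2.23, Runx1 by 3.89) while 1 fell in XY-KO against XY-WT. Behind the near-equal sums of the kinds of testis, the 8 ranged from -2.49 to 0.77 in XY-KO against XY-WT, with a median of 0.26. There 2 were higher and 1 lower at an unadjusted p under 0.05, against 8.76% and 10.2% of all genes. With the trend removed the median was 0.45, with 1 called higher and 1 lower. The levels of Cdkn1b stood in the same order as these sums, high in the ovary and nearly equal in the kinds of testis. The meiotic markers stood in that order too, at 107, 446 and 107 CPM. Which cells hold the Cdkn1b RNA was not tested.

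The 11 germ cell markers summed to 473, 671 and 377 CPM. In the authors' deposited table for XY-KO against XY-WT all 11 lay below 0 with a median of -0.37 and 1 fell, beside a median of -0.38 in the mitotic members. With the trend removed the germ cell median was -0.23 with none called, beside -0.37 in the mitotic members. Dazl stood at -0.34 (adjusted p 0.325) and Dppa3 at -0.14 (0.792) in that table. In XX-WT against XY-WT 6 rose and 1 fell, and in XY-KO against XX-WT 7 fell. The 10 meiotic markers summed to 107, 446 and 107 CPM, with 7 higher in XX-WT against XY-WT (Smc1b by 2.10, Sycp1 by 2.56), 7 lower in XY-KO against XX-WT and none called in XY-KO against XY-WT.

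The 5 fetal Leydig markers summed to 640, 24.1 and 633 CPM (Hsd3b1 at 248, 15.6 and 260, Cyp17a1 at 160, 1.19 and 155), and the 6 interstitial markers to 683, 266 and 641 (Pdgfra at 240, 97.8 and 252, Nr2f2 at 218, 115 and 217). All 11 of these genes fell in XX-WT against XY-WT in the authors' deposited table. In XY-KO against XY-WT 1 interstitial marker fell and no Leydig marker was called. The 6 endothelial markers summed to 171, 158 and 165 CPM, the 5 macrophage markers to 18.8, 21.6 and 16.7 and the 10 erythroid markers to 452, 717 and 398, with Hbb-y at 291, 522 and 262. None of these 3 lists had a gene called by limma in XY-KO against XY-WT. There 3 erythroid markers were lower and 1 endothelial marker higher at an unadjusted p under 0.05, against 10.2% and 8.76% of all genes. In XY-KO against XX-WT 4 erythroid markers fell, or 1 with the trend removed, against 9.11% and 8.93% of all genes. The 3 skeletal muscle markers in the tables summed to 11.5, 39.7 and 36.4 CPM, and Myh8 rose by 1.66 (adjusted p 0.00148) per the authors' deposited table for XY-KO against XY-WT.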

How the data were processed

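RNA sequencing of 9 mouse gonad samples, 3 in each of 3 groups, was available as 3 tables of the authors' group comparisons over the same 15300 genes, with 0 columns of per-sample values. Per the labels' protocols, column-purified RNA was amplified by SPIA and sequenced as read pairs. The submitters' processing notes list limma 3.24.0, HTSeq 0.6.1p1, TopHat2 2.0.8 and Trimmomatic 0.30, with build GRCm38, and filters on genes are not given in the sources used here. The authors deposited log2 fold changes and a mean expression in log2 units. They also deposited, as scores, limma's moderated t and log-odds. Per the file headers, a p-value and an adjusted p-value fill the other columns.

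Benjamini-Hochberg adjustment of the p-values returned the deposited adjusted values within a relative difference of 0.000769. In each table the p-values followed from t at 15.27 degrees of freedom, and the fold changes of any pair of tables gave the third within 0.005, as a shared fit would. SE was the fold change divided by t, and group levels assume equal weight for the groups. A trend of fold change with GC content and length of the longest GENCODE M21 transcript (robust regression, polynomial degree 3, genes at or above median expression) was removed as an alternative. GC content and length were found for all 44 members, and genes without them were left unchanged. A symbol was matched for 15192 of the 15300 genes. Scripts were tested on simulated data. Software was matplotlib 3.10.9, statsmodels 0.14.6, scipy 1.17.1, pandas 2.3.3 and numpy 2.4.6 under Python 3.11.15.

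The members and lists were chosen with earlier results of these data known. All members could be named, and besides them the 3 genes of smallest adjusted p in each of 6 wider lists (173 of 175 genes measured) and each comparison, and the 2 of highest mean level in each of 10 marker lists. The lists are those given with their counts in the results. Depth is unknown, so no interval for counting error was made.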

Additional observations from a re-analysis of the deposited data

How the results depend on the processing

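Counts of called members were small and moved with the threshold. For XY-KO against XY-WT, the replication count of 1 became 0 with Bonferroni adjustment, with a limit of 2-fold, at an adjusted p under 0.01, with median centring and with the trend in GC and length removed, and became 3 with the adjustment made over the 3 comparisons. The mitotic count of 0 became 1 among genes at or above median expression (Plk1, adjusted p 0.0497) and 8 with the adjustment over the 3 comparisons. In these settings 2.69% of the genes tested and 6.03% of all genes were called. At an unadjusted p under 0.05, chosen after seeing the data, the replication, mitotic and G1 counts were 6, 16 and 1. For XX-WT against XY-WT, the 7 mitotic calls became 1 at an adjusted p under 0.01 and 0 with the 2-fold limit or Bonferroni, the G1 count became 1 and the G1 median 0.42 at or above median expression, where Cdkn1a is left out, and 4 replication members passed unadjusted. For XY-KO against XX-WT, the 4 replication calls became 1 at 0.01 and 0 with the 2-fold limit or Bonferroni, the G1 median was -0.66 at or above median expression, and the mitotic count was 2 with the trend removed and 4 unadjusted. Called genes over the whole table for XY-KO against XY-WT numbered 347 as deposited, 139 at 0.01, 190 with the 2-fold limit and 206 at or above median expression. They numbered 922 over the 3 comparisons, 55 with Bonferroni and 2899 unadjusted. The other comparisons also fell by more than 1.5 times at 0.01, to 2127 for XX-WT against XY-WT and 1699 for XY-KO against XX-WT. In that order they fell to 1836 and 1540 with the 2-fold limit and 627 and 481 with Bonferroni, and rose to 5413 and 4513 unadjusted. At or above median expression they numbered 1879 and 1397, but fewer genes were tested there. The shares called there were 2.69% in XY-KO against XY-WT, 24.6% in XX-WT against XY-WT and 18.3% in XY-KO against XX-WT. Over all genes they were 2.27%, 23.3% and 18.3%.

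No gene named here whose value changed sign was called in either form. Median centring took Cdkn1b in XY-KO against XY-WT to 0.0006. Removing the trend gave, in XY-KO against XY-WT, Mcm7 0.10, Gins1 0.025, Ccnd2 -0.016, Hjurp 0.018 and Phlda3 0.15. In XX-WT against XY-WT it gave Cdt1 0.021, Ccne2 -0.074, Bub1 -0.025, Cenpa 0.020, Cenpf -0.041, Gadd45g 0.10 and Trp53 0.0097, and in XY-KO against XX-WT Top2a -0.019. Among list medians the same step moved the other G1 and S phase regulators in XY-KO against XX-WT from -0.056 to 0.0033, and the other arrest genes from -0.056 to 0.049 in XX-WT against XY-WT and from -0.18 to -0.056 in XY-KO against XY-WT. It moved the other polymerase and fork genes in XX-WT against XY-WT from -0.11 to -0.0035. The cause was not tested. No paired analysis was possible because the tables hold no per-sample values, and for the same reason leaving out each replicate was not run.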
